A study of Mus musculus with 7 samples.

Results

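The genes described here are the writers, erasers and readers of DNA methylation, in RNA from gonadal fat of CD-1 male pups (an outbred mouse stock). The 9 genes Dnmt1, Dnmt3a, Dnmt3b, Uhrf1, Tet1, Tet2, Tet3, Tdg and Mbd2 were taken by symbol from the gene column of the deposited table. Each of them names a single locus, so there are 9 loci of the 25791 with a gene name and of 35534 in all. The RNA came from 4 pups of dams given BDE-47 (2,2',4,4'-tetrabromodiphenyl ether, a brominated flame retardant) at 0.2 mg per kg of body weight daily, and from 3 pups of dams given only the corn oil carrier. All dams were dosed by mouth from day 8 of pregnancy to day 21 after birth, with 5 dams assigned to each group, and the pups, each from its own litter, were killed on postnatal day 21. The pups were therefore exposed through the mother, before birth and by milk.

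The table holds 1 FPKM value per group and none per mouse. FPKM counts fragments per unit of transcript length and of mapped reads, so levels of different genes can be set side by side on it. The authors' program combined the libraries of a group into this value, and the table gives its log2 to 2 decimals. The spread between mice behind each value is unknown, the table does not give the depth of the libraries, for which the study states only a minimum, and no difference given here has a replicate check. A gene is therefore said to be higher or lower only as its group values stand, and no p-value was computed. As a yardstick of size, a locus was counted as changed when its group values differed at least 2-fold, among the 14262 named loci with more than 1 FPKM in at least 1 group.

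In mammals, methyl groups sit mostly on cytosines that are followed by guanine (CpG sites). Dnmt3a and Dnmt3b place new methyl groups, and Dnmt1 copies existing marks to the new strand when DNA is replicated. Uhrf1 recognises the half-methylated sites left by replication and brings Dnmt1 to them. The Tet enzymes oxidise methylcytosine, Tdg cuts out the oxidised base so that repair can put back a plain cytosine, and Mbd2 binds methylated CpG sites and brings the NuRD repressor complex to them. Fat is one of the tissues in which this machinery has been studied during the formation of fat cells.

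None of the 9 genes differed 2-fold between exposed and control fat. Of all filtered loci, 5.28% did so, 1.04% higher and 4.24% lower in exposed fat. The genes also did not reach 1.5-fold, a size that 10.7% of the filtered loci passed. The largest differences were in Uhrf1, which was 1.35-fold lower, and Dnmt3a, which was 1.27-fold lower, among the 7 genes above 1 FPKM in at least 1 group. Of these 7 genes, 2 had a log2 difference above 0 and 5 below 0, with a median of −0.05, while 50.8% of all filtered loci were above 0 and 47.3% below 0, with a median of 0.01. Dnmt3b and Tet1 stayed under 1 FPKM in both groups and did not pass the filter.

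**Figure D1:**
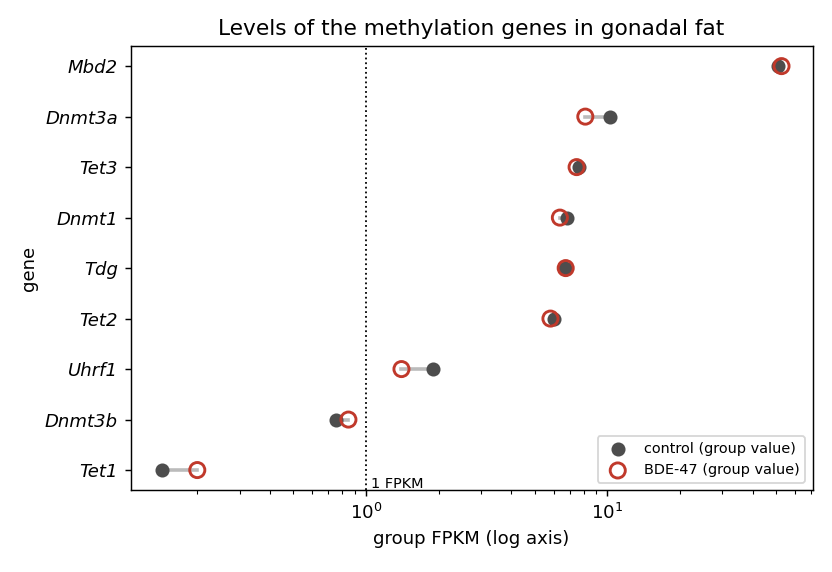
Group FPKM (log axis) of the 9 methylation genes in control fat (filled points, 1 value made from 3 libraries) and BDE-47-exposed fat (open circles, 1 value made from 4 libraries). Mbd2 lies highest at 50.9 and 52.7 FPKM, Dnmt3b and Tet1 lie below the dotted line at 1 FPKM, and the widest gaps between the circles above that line are those of Dnmt3a and Uhrf1.

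The loci, as the table defines them on mm10, follow the genes of the GENCODE vM21 annotation with some exceptions that bear on the values. The Dnmt1 locus (XLOC_033086, chr9:20907206-20959888, minus strand) spans all 7 annotated transcripts of the gene. It therefore pools RNA from all start sites of the gene, of which an upstream one is known for its use in oocytes. The Dnmt3a locus (XLOC_006313, chr12:3806980-3914443, plus strand) likewise pools the long form with the shorter form that starts inside the gene. The Tet1 locus (XLOC_003206, chr10:62804570-62880014, minus strand) covers 72.2% of the annotated gene. The RefSeq start of Tet1 lies 7310 bases upstream of its edge, so transcripts from that start were not wholly inside the measured locus. The Tdg locus (XLOC_002596, chr10:82629838-82690650, plus strand) was reported over a stretch that also holds Glt8d2, a gene on the opposite strand whose exons share 367 bases with those of Tdg.

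The promoters of these genes are given here because some of these genes have several start sites, and 1 group value per locus cannot tell the starts apart. RefSeq sequence of GRCm38.p6, the same assembly as mm10, was held for 8 of the 9 symbols, with 13 start sites in all. The following stretches are the 120 bases just before a start, 5′ to 3′ on the strand of the gene, with the CpG sites in capitals. The first is the Dnmt1 start that lies furthest upstream, at chr9:20959889-20960008 (minus strand), with 1 CpG site. The second is the next Dnmt1 start at chr9:20952980-20953099 (minus strand), with 5. The third is the first Dnmt3a start at chr12:3806860-3806979 (plus strand), with 16, and the last is the Tet2 start at chr3:133544391-133544510 (minus strand), with 25.
Dnmt1, upstream start: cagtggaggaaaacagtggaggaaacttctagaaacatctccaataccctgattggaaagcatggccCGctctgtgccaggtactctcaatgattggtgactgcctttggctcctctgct
Dnmt1, next start: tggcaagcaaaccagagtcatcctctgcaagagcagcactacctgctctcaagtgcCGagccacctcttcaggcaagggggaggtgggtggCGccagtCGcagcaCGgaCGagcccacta
Dnmt3a, first start: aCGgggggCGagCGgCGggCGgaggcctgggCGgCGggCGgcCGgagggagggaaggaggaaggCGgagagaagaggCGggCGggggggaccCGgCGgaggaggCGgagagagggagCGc
Tet2: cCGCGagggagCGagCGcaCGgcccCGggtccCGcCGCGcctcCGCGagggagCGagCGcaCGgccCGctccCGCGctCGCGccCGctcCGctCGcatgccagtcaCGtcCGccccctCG
Over the 250 bases before each start, the upstream Dnmt1 start held 2 CpG sites, the first Dnmt3a start 38 and the Tet2 start 51, against a median of 6 over 32851 windows of the same length. The Tet2 window had more CpG sites than 99.9% of them, the Dnmt3a window more than 98.1% and the upstream Dnmt1 window more than 18.8%. The Dnmt1 starts differed widely: the next start held 7 CpG sites, and a further start at chr9:20952623, not printed above, held 26. That last window had more CpG sites than 90.4% of all windows, and 166 of its bases lie in exons of the gene. The table analysed here holds no measurement of methylation at these sites.

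Of the writers, Dnmt3a was the most abundant and had the largest difference between the groups. Its log2 FPKM was 3.36 in control and 3.02 in exposed fat, which is 10.3 and 8.11 FPKM, a log2 difference of −0.34. Among 2810 named loci of similar level, within 0.5 log2 units of its mean, 15.0% differed by at least as much in either direction, and 10.2% had an equal or lower difference. The middle 50% of those loci ran from −0.10 to 0.15 and the middle 90% from −0.55 to 0.33. Dnmt3a thus lay below the first range and inside the second. Dnmt3aos, a transcript from the opposite strand inside the gene, had a locus of its own in the table at 1.32 FPKM in control fat and 0.908 FPKM with BDE-47, a log2 difference of −0.54. Its exons share 133 bases with those of Dnmt3a, and the strand setting of the counting is not given in the sources used here, so reads over those bases cannot be told apart.

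Dnmt1, the maintenance enzyme, was at 6.82 FPKM in control fat and 6.36 FPKM with BDE-47, a log2 difference of −0.10. Of 2668 loci of similar level, 65.1% differed by at least as much. Dnmt3b was at 0.753 and 0.847 FPKM, a log2 difference of 0.17, where 76.1% of 1521 loci of similar level differed by as much or more. Summed over the 3 methyltransferases, the level was 17.8 FPKM in control fat and 15.3 FPKM with BDE-47, a log2 difference of −0.22. Most of that gap is the Dnmt3a value. The level of Dnmt3a was 13.6 times that of Dnmt3b in control and 9.58 times in exposed fat, and both numbers rest on a Dnmt3b value under 1 FPKM.

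Uhrf1, the partner that brings Dnmt1 to replicated DNA, had the lowest difference of the 9 genes. It was at 1.89 FPKM in control fat and 1.40 FPKM with BDE-47, a log2 difference of −0.43. Loci at this low level vary more than those of Dnmt3a: the middle 50% of 1720 loci of similar level ran from −0.32 to 0.19 and the middle 90% from −1.19 to 0.63. The Uhrf1 difference lay outside the first range and inside the second, and 30.1% of those loci differed by at least as much. Dnmt1 was 3.61 times as abundant as Uhrf1 in control and 4.53 times in exposed fat. Its locus (XLOC_013457) lies at chr17:56303337-56323486, plus strand.

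**Figure D2:**
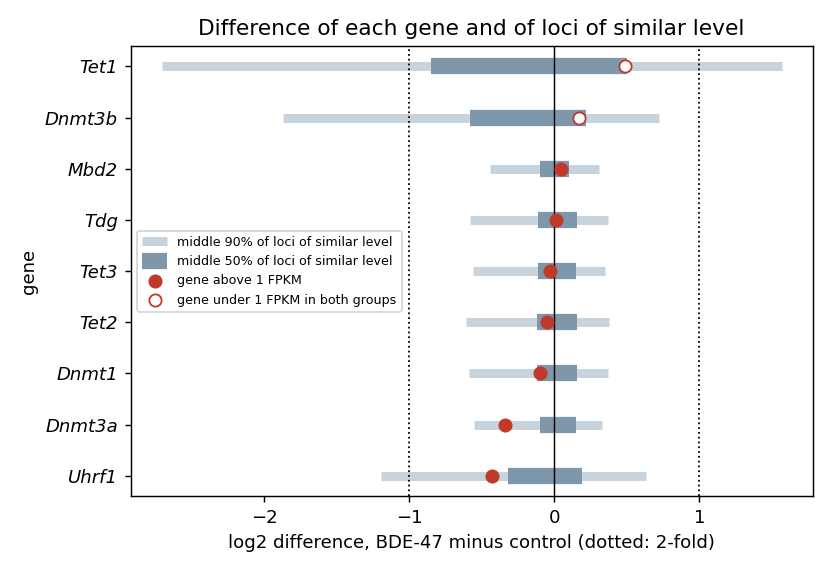
Log2 difference of each gene, BDE-47 minus control (points, open where the gene stayed under 1 FPKM in both groups), over the middle 50% (dark bars) and the middle 90% (pale bars) of named loci within 0.5 log2 units of its mean level. All 9 points lie inside the pale bars, 7 lie inside the dark bars, and Uhrf1 at −0.43 and Dnmt3a at −0.34 lie to the left of theirs.

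Among the erasers, the levels of Tet2, Tet3 and Tdg were nearly equal between the groups. Tet3 was at 7.62 FPKM in control fat and 7.46 FPKM with BDE-47, a log2 difference of −0.03. Tet2 was at 6.02 and 5.82 FPKM, a log2 difference of −0.05, and 43 bases of its exons are shared with the antisense gene Gm42567. Of the loci of similar level, 90.5% differed by at least as much as Tet3 and 82.7% by at least as much as Tet2. Tdg, the glycosylase that removes oxidised methylcytosine, was at 6.68 and 6.73 FPKM, a log2 difference of 0.01, which is the last decimal the table gives. Glt8d2, whose exons overlap those of Tdg on the other strand, was at 5.50 and 6.32 FPKM. Tet1 was the scarcest of the 9 genes, at 0.143 FPKM in control fat and 0.200 FPKM with BDE-47. Its log2 difference of 0.49 was the highest of the 9, yet 60.9% of 964 loci of similar level differed by at least as much, and with 1 FPKM added to both groups it was 0.07. Tet3 was 53.4 times as abundant as Tet1 in control and 37.3 times in exposed fat. Summed over the 3 Tet genes, the level was 13.8 FPKM in control fat and 13.5 FPKM with BDE-47.

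Mbd2, which reads methylated CpG sites, was the most abundant of the 9 genes. It was at 50.9 FPKM in control fat and 52.7 FPKM with BDE-47, a log2 difference of 0.05, and 75.6% of 1142 loci of similar level differed by at least as much. Its control level was above that of 88.2% of the filtered loci, against 53.8% for Dnmt3a, 42.2% for Dnmt1 and 13.7% for Uhrf1.

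The order of the levels in control was Mbd2, Dnmt3a, Tet3, Dnmt1, Tdg, Tet2, Uhrf1, Dnmt3b and Tet1. In exposed fat it was the same but for Dnmt1 and Tdg, which changed places. Whether neighbours in this order differ beyond the spread of mice is not known from 1 value per group. The ratio of the summed methyltransferases to the summed Tet genes was 1.29 in control and 1.14 in exposed fat. With only 2 group values there is no pattern over samples by which other genes could be called alike, so none is named for that.

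**Figure D3:**
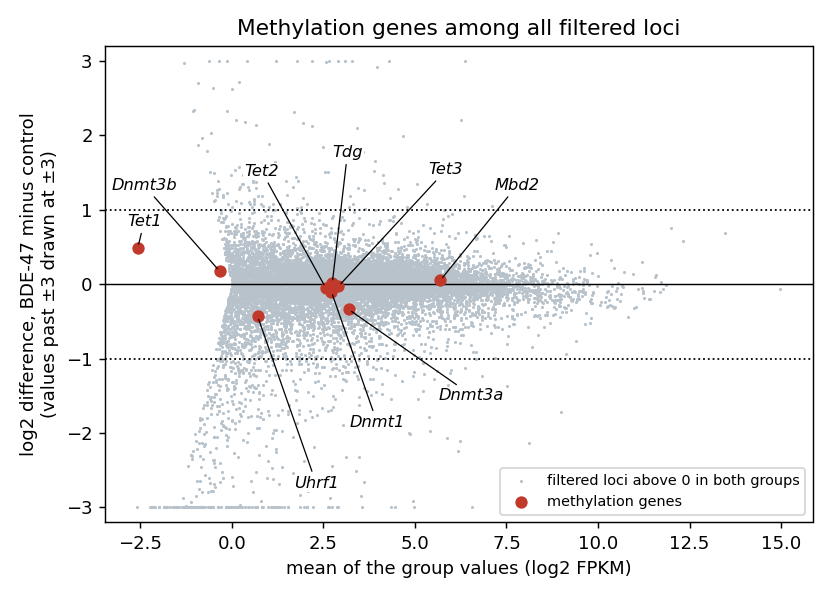
Log2 difference, BDE-47 minus control, against the mean of the group values (log2 FPKM) for the filtered loci above 0 in both groups (grey) and the 9 methylation genes (red). The red points all lie between the dotted lines at 2-fold, with Uhrf1 and Dnmt3a below the line at 0. At mean levels below 0 on the log2 axis, the grey points are loci that passed 1 FPKM in 1 group only. Dnmt3b and Tet1, which did not pass the filter in either group, are drawn outside the grey cloud.

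Other genes of the pathway were compared in the same way, in lists chosen for their role. In the list of factors that maintain or target methylation, 14 of 15 genes passed the filter, 7 above 0 and 7 below 0, with a median log2 difference of 0.03 (0.01 over all filtered loci) and none 2-fold apart. Ehmt2, a histone H3 methyltransferase, was at 40.8 FPKM in control fat and 38.9 FPKM with BDE-47. Pcna, the sliding clamp of replication, was at 40.8 and 35.0 FPKM, and Trim28, a corepressor needed for methylation at imprinted sites, was at 22.9 and 24.8 FPKM. The largest differences in this list were those of Cdca7, a partner of the remodeller Hells, with 1.37 and 0.908 FPKM and a log2 difference of −0.59, and of Dnmt3l, the inactive cofactor of Dnmt3a, with 1.95 and 1.32 FPKM and a log2 difference of −0.56. Both differences lie inside the middle 90% given above for loci near the level of Uhrf1. Nsd1, a methyltransferase for histone H3, had a log2 difference of 0.22.

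The other listed readers with their relatives, and the NuRD complex, differed little between the groups. That list holds 11 methyl-CpG readers and relatives of such readers, and not all of them are known to read the mark. Of these 11 genes, 8 were above 0 and 2 below 0, with a median of 0.09 and a range of −0.12 to 0.27. Mbd3, the NuRD subunit related to Mbd2, was at 62.7 and 63.1 FPKM, Zbtb4 was at 19.0 FPKM in each group, and Mbd1 was at 17.9 and 19.0 FPKM. Mbd5, Baz2b and Baz2a had the largest differences of that list, 0.27, 0.22 and 0.20 on the log2 scale. Of 12 NuRD genes, 8 were above 0 and 4 below 0, with a median of 0.03. Chd4, the main remodelling subunit, was at 56.9 and 57.7 FPKM, and Rbbp7 was at 53.1 and 50.9 FPKM. Chd3 had the largest difference of the complex, −0.24, ahead of Hdac1 at 0.15 and Hdac2 at 0.11.

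In the list of base excision repair and demethylation partners, 16 of 18 genes passed the filter, 11 above 0 and 5 below 0, with a median of 0.02 and none 2-fold apart. Ogt, a glycosyltransferase that binds the Tet enzymes, was at 39.1 and 39.7 FPKM. The GADD45 genes, stress-induced genes linked to active demethylation, differed in sign. Gadd45g was at 24.4 FPKM in control fat and 39.4 FPKM with BDE-47, a log2 difference of 0.69, and Gadd45b was at 10.1 and 6.06 FPKM, a log2 difference of −0.73. Gadd45a, the most studied of them, was at 21.1 and 19.7 FPKM. Ung, a uracil glycosylase, had a log2 difference of −0.54, from 3.39 to 2.33 FPKM. Among the 16 loci past the filter, Gadd45g was the 1 at least 1.5-fold higher and Gadd45b the 1 at least 1.5-fold lower. Across all filtered loci, 10.7% were 1.5-fold apart in either direction, near the share in this list.

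The genes of substrate metabolism for these enzymes differed by list. The Tet enzymes use 2-oxoglutarate, and in a list of enzymes of its metabolism all 13 genes were above 0, as were 50.8% of the filtered loci. Their median was 0.14 and none passed 1.5-fold. Idh1, the cytosolic isocitrate dehydrogenase, was at 161 and 177 FPKM, Sdhb was at 155 and 171 FPKM, and Idh3g was at 158 and 163 FPKM. Sdha had a difference of 0.22 and Sdhc of 0.20. DNA methyltransferases use S-adenosylmethionine. Of 23 genes of methyl donor supply and use, 7 were above 0 and 16 below 0, against 50.8% and 47.3% of the filtered loci, with a median of −0.15. The list joins genes that make S-adenosylmethionine with genes that use it, so its counts do not measure supply. At least 2-fold lower were 4 of the 23 genes and higher 0, against 4.24% and 1.04% of the filtered loci. Mat2a, which makes S-adenosylmethionine in most tissues, was at 108 and 105 FPKM. Nnmt, which uses up S-adenosylmethionine on nicotinamide and is abundant in fat, was at 234 and 174 FPKM. Gamt, which uses it for creatine, was at 81.6 and 61.4 FPKM. The lowest differences were those of Bhmt2 at −4.73, Mat1a, the S-adenosylmethionine synthetase of liver, at −4.63, and Bhmt at −3.79. Hepatocyte markers moved with them: all 14 of a hepatocyte list were below 0 and 13 were at least 2-fold lower, and their part in the methyl donor result was not tested.

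Uhrf1 and Dnmt1 belong to the genes that dividing cells switch on for DNA replication, so the genes of S phase and mitosis were set beside them. Of 32 such genes, 27 passed the filter, with a median log2 difference of −0.35. Of these 27 genes, 6 were above 0 and 21 below 0, against 50.8% and 47.3% of the filtered loci. At least 2-fold lower was 1 of the 27 and higher 0, against 4.24% and 1.04% of the filtered loci, so this count is near that share. At least 1.5-fold lower were 10 and higher 0. Of all 14262 filtered loci, 1141 were 1.5-fold lower and 389 higher, 10.7% in either direction. Birc5 (survivin) was at 4.14 FPKM in control fat and 1.97 FPKM with BDE-47, a log2 difference of −1.07. Tk1, thymidine kinase, had a difference of −0.84 and Ccnb2, a mitotic cyclin, −0.83. The more abundant genes of the list differed less: Mcm7, a subunit of the replicative helicase, was at 9.58 and 10.6 FPKM, and Gins2 at 8.51 and 9.32 FPKM. Over the genes of the list above 5 FPKM in at least 1 group, the median was −0.12. The Uhrf1 difference of −0.43 lies below the median of this list and the Dnmt1 difference of −0.10 above it.

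E2F factors switch on many S phase genes by binding at their promoters, so the 250 bases before each start were searched for the letters TTTGGCGC, TTTCCCGC and GGCGGGAA on either strand, of which the second and the reverse of the third can overlap. Of the 8 methylation genes whose promoters were searched (all but Mbd2), Uhrf1 was the one with a match, 48 bases before its first start. The stretch around it, at chr17:56303269-56303316 on the plus strand, is shown with the matching letters in capitals.
Uhrf1, first start: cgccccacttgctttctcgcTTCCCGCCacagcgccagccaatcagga
Of all 32851 windows, 2.69% held one of these words. Counted per gene, 3.10% of 27025 genes had such a window, and 8 of the 27 S phase genes with promoter sequence did. A match describes the letters and does not show that a factor binds there.

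**Figure D4:**
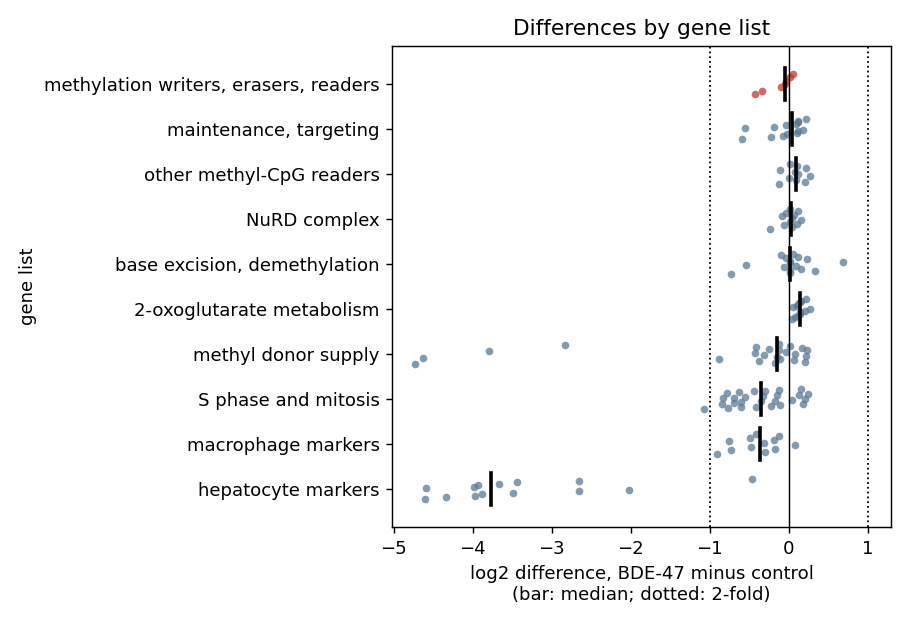
Log2 difference, BDE-47 minus control, of every gene past the filter in each list (points; bars are medians, dotted lines 2-fold). The 7 methylation genes and most of the pathway lists gather near 0, the S phase list is shifted to a median of −0.35, and the methyl donor list has 4 genes near the hepatocyte markers, which have a median of −3.77.

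The samples carried markers of fat, and markers of other cells differed between the groups. Fabp4, the fatty acid binding protein of adipocytes, was at 32996 and 31652 FPKM, and Cfd (adipsin) at 4182 and 6252 FPKM. The 14 adipocyte markers summed to 50238 FPKM in control fat and 50868 FPKM with BDE-47. The 14 hepatocyte markers summed to 978 and 243 FPKM, with Alb (albumin) at 362 and 24.6 FPKM. Most of the exposed sum came from a locus that joins Serpina1a with Serpina1b, Serpina1d and Serpina1e, at 247 and 179 FPKM. Its log2 difference of −0.47 was the smallest of the list, and the other 13 markers were at least 2-fold lower. The 12 epididymis markers, from the organ beside this fat pad, summed to 43.0 and 0.573 FPKM, with 2 of them at 0 in control and 5 in exposed fat. The 12 macrophage markers summed to 1488 and 968 FPKM, 11 of them below 0 (median −0.37), and the 12 lymphocyte markers summed to 29.4 and 22.6 FPKM. Of the 8 smooth muscle markers, 7 passed the filter and 3 of these were at least 2-fold higher, as were 1.04% of the filtered loci, while the most abundant, Acta2 and Tagln, had log2 differences of −0.11 and 0.03. In RNA of whole tissue, fewer cells of a kind and less RNA per cell cannot be told apart. The part of these shifts in the Dnmt3a, Uhrf1 and S phase values was not tested.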

How the data were processed

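Poly(A) RNA of gonadal fat was sequenced by the study. Per its methods and the submitters' processing notes, reads were mapped to mm10 with TopHat2, transcripts were assembled with Cufflinks 2.1.1 and groups were compared with Cuffdiff 2.1.1. The study excluded 1 control library for its low read number. The annotation, the strand setting and how libraries were scaled were not given in the sources used here. Each group's log2 FPKM was deposited by the authors, with a group at 0 FPKM listed at −10; 1 line was empty. The authors' columns of log2 ratio, q value, test status and significance were not used. There are 0 columns of single mice.

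Differences of the deposited log2 group values were computed over all loci, with no pseudocount. The filter (named loci above 1 FPKM in either group) and the 2-fold threshold follow the study. The counts obtained here, 14262 loci past the filter and 753 of them 2-fold apart, are slightly lower than those the study reports. The samples were assigned to groups by their source labels. A symbol took its locus with the highest mean FPKM. Locus starts were moved by 1 base, since 2946 of 6560 loci that end at a GENCODE gene end then also begin at its start, against 195 as deposited. No test was run, as none is possible on 1 value per group, and the table gives no depth per library, so no interval is given. Named genes are the 9 genes, and in each of 8 pathway lists the 3 most abundant and up to 3 with the largest differences past the filter. A gene that this rule names is not reported here. In marker lists set beside a result, genes were named by abundance. The genes and lists were chosen with earlier results of these data known. The counting was tested on simulated data. Alternatives changed the pseudocount, the filter, the scaling, the names kept and the fold. Python 3.11.15, pandas 2.3.3, numpy 2.4.6 and matplotlib 3.10.9 were used.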

Additional observations from a re-analysis of the deposited data

How the results depend on the processing

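None of the 9 genes passed 2-fold under any of the 8 alternatives, nor 1.5-fold where that was the threshold. Most of these alternatives could not have changed that count. The filters and the names kept leave each gene's own difference as it is, and an added pseudocount can only shrink it. Over 45 alternative values of their log2 differences, each moved by less than 0.5 of the width of the middle 50% of loci of similar level. This count includes values that could hardly move. Summing over all loci that name a gene returned the same values, since each gene names a single locus, and centring shifts every gene by the same 0.01 or 0.02. Uhrf1 ranged from −0.45 to −0.27, Dnmt3a from −0.36 to −0.31 and Tet1 from 0.07 to 0.49. Of 56 alternative list medians, 54 stayed within 0.5 of the width of the middle 50% of filtered loci. The S phase median was −0.12 among loci above 5 FPKM, and the median of the germline list was 0.30 without the filter. The counts of all loci at least 2-fold higher and lower (148 and 605) were 85 and 330 with 1 FPKM added, 1128 and 1605 without the filter, 65 and 215 above 5 FPKM, and 389 and 1141 at 1.5-fold. Leaving out single mice could not be done, because the table has no values per mouse. No paired analysis was possible because the groups have 1 value each. Centring moved the medians by 0.01 or 0.02 on the log2 scale. For Tet1 and Dnmt3b, below 1 FPKM, a difference of the size seen is within what most loci of that level show.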

Other observations

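Germline genes, many of which are kept silent in body tissues by methylation of their promoters, were mostly under 1 FPKM in both groups. Of 20 such genes, 2 passed 1 FPKM, Sycp3 and a locus that joins Brdt with Ephx4, and 1 was at 0 in both groups. Sycp3 was at 61.4 FPKM in control fat and 56.1 FPKM with BDE-47. Its exons share 660 bases with those of Chpt1, a phospholipid synthesis gene reported over the same stretch at 626 and 657 FPKM, which was looked at after the Sycp3 value was seen. The locus of Brdt and Ephx4 was at 3.92 and 3.53 FPKM. The next by the mean of the groups was Syce1, a gene of meiotic chromosome pairing, at 0.403 and 0.497 FPKM. The testis markers summed to 81.7 and 72.6 FPKM, most of it Sycp3, and 3 of the 10 were listed at 0 in exposed fat.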
